A study of Mus musculus with 6 samples.

Results

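Fhl1 and Smoc2 rose in D4M-3A mouse melanoma cells carrying an Nfkbiz knockout construct. Among the 10 genes described here, the 5 other genes that could be tested stayed within a log2 change of 0.44 in either direction. The 10 genes described here are 3 FHL genes (Fhl1, Fhl2 and Fhl3) and 7 genes of the SPARC and SMOC group (Smoc1, Smoc2, Sparc, Sparcl1, Spock1, Spock2 and Fstl1), out of 43043 genes listed. Fhl1 and Smoc2 were chosen by the size of their log2 fold change in this same comparison, and the other 8 because they are paralogs or belong to the same families. The values of Fhl1 and Smoc2 are therefore given as a description, without a test.

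RNA was sequenced from 3 control samples (Ctrl) and 3 knockout samples (Nfkbiz KO) of D4M-3A, a mouse melanoma cell line. Ctrl cells had received a lentivirus whose CRISPR-Cas9 construct was empty, and Nfkbiz KO cells 1 with a construct against Nfkbiz, which encodes the transcriptional cofactor IκBζ. Both groups were selected with puromycin and grown in the same serum-containing medium, and the labels name no further treatment. By the study's description the 3 samples of a group were independent experiments. The sources used here do not say whether the cells of a group were a pool or 1 clone. Values with ± are the mean and the SD over the 3 samples of a group.

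FHL proteins consist of LIM domains, zinc-finger modules that bind other proteins, and act as adaptors between the actin cytoskeleton, integrin adhesions and transcription factors. They are best known from heart and skeletal muscle. SPARC, SPARC-like 1, the SMOC proteins and the testicans (the Spock genes) are secreted and share a follistatin-like module with a calcium-binding module. They belong to or lie close to the matricellular proteins, which sit in the extracellular matrix and modulate adhesion and growth factor signaling without being structural parts of it, and SPARC is abundantly made by many melanomas.

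The start regions of Fhl1 and Fhl2 are shown because these paralogs differed most among the FHL genes, Fhl1 being higher in Nfkbiz KO and Fhl2 not. The sequences are the 250 bases before each start in the RefSeq set used (GRCm38.p6), written 5′ to 3′ in the direction of the gene. Fhl1 has 23 and Fhl2 41 annotated transcripts (GENCODE vM39), so other starts may not be covered. Capitals mark matches to the CArG box, the motif bound by serum response factor (SRF), and to the TATA box.

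Fhl1 start 1 (chrX:56779433-56779682, plus strand): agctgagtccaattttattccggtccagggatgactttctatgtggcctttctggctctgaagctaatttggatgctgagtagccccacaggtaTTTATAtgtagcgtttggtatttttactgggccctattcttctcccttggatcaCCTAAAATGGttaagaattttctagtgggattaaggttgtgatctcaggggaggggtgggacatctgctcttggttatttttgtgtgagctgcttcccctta
Fhl1 start 2 (chrX:56786277-56786526, plus strand): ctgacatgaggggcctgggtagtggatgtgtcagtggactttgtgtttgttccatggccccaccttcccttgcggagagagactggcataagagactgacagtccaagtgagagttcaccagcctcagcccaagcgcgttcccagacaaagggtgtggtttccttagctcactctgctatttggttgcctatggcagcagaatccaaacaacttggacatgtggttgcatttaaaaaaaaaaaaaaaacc
Fhl2 start 1 (chr1:43196762-43197011, minus strand): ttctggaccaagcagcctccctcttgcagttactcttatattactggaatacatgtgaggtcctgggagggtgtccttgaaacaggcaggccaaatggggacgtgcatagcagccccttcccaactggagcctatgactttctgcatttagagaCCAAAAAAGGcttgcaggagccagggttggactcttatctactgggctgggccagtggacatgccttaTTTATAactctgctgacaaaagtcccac
Fhl2 start 2 (chr1:43163962-43164211, minus strand): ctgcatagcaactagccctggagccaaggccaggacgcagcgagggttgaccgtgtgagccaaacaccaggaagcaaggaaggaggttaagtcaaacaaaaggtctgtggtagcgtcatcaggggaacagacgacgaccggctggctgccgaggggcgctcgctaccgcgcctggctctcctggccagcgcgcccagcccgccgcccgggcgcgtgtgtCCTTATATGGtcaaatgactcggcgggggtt

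A CArG box was present before start 1 of Fhl1, as CCTAAAATGG with its first base 102 bases before the start. It was also present before both starts of Fhl2, as CCAAAAAAGG at -96 and as CCTTATATGG at -31. No match to any motif searched was found at start 2 of Fhl1. TATA boxes (TATAAA on either strand) lay at -156 for start 1 of Fhl1 and at -28 for start 1 of Fhl2. In all, 9 start regions of 7 members were available, each of 300 bases (250 before and 50 after the start), and 3 of the 9 held a CArG box, as did 1.63% of 32851 start regions of the genome. A TATA box was found in 13.6% of all regions. An AP-1 site (TGANTCA, either strand) occurred only at Spock1 among the members, as TGAATCA at -115, and in 7.81% of all regions. Neither an NF-kB site (8.46% of all regions) nor a STAT site (TTCNNNGAA, 8.3%) was found in the 9 regions, which says only that these letters are not in these windows. No region was read for Smoc1, Smoc2 and Sparcl1. A match is a description of the letters and not a binding site.

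The samples had between 32219900 and 44927203 reads counted on genes, so that a count of 0 in a sample allows up to 0.0668 to 0.0931 CPM (counts scaled by library size), for counting error only. Nfkbiz itself had 69.1, 75.2 and 63.4 TPM (a level scaled by transcript length and depth) in Ctrl and 34.8, 34.7 and 35.1 TPM in Nfkbiz KO (log2 fold change -0.98, standard error or SE 0.056, adjusted p = 6e-08, edgeR), which counts its transcripts whether edited or not. Of 15 melanocyte lineage markers, 13 were under 1 TPM in every sample and 5, including Sox10 and Tyr, had no read in any, while Pax3 was present at 8.87 ± 0.638 TPM in Ctrl against 9.75 ± 0.576 TPM in Nfkbiz KO. The summed level of 10 fibroblast markers, 6 of which were at 1 TPM or more in every sample, ranged from 1074 to 1190 TPM in Ctrl and from 897 to 945 TPM in Nfkbiz KO. Most of this sum came from Col1a1, Col1a2 and Col3a1. Summed over 7 endothelial markers, the level was 0.556 to 0.833 TPM in Ctrl and 1.34 to 1.86 TPM in Nfkbiz KO, most of it from Cdh5, and for 10 immune markers it was 27.8 to 32.7 TPM and 22.1 to 25.8 TPM, of which S100a8 was the only called member. The part of these markers in the results was not tested. In bulk RNA, fewer cells expressing a gene cannot be told apart from less RNA per cell.

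Fhl1, an adaptor expressed mainly in striated muscle and mutated in inherited myopathies, was the lowest of the 3 FHL genes in every sample. It had 0.654, 0.274 and 0.428 TPM in Ctrl replicates 1, 2 and 3, and 6.65, 5.64 and 5.67 TPM in Nfkbiz KO replicates 1, 2 and 3. Every Nfkbiz KO sample lay above every Ctrl sample, and the lowest of the former was 8.62 times the highest of the latter. The group means were 0.452 ± 0.191 TPM and 5.99 ± 0.573 TPM, a ratio of 13.2. The Ctrl level rested on few reads, namely 25, 12 and 21 per sample, or 58 in all with a 95% Poisson interval of 44.04 to 74.98 for counting error only. In Nfkbiz KO, 234, 238 and 282 reads were counted, or 754 in all (701 to 810). All of these reads mapped uniquely.

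From the read counts, Fhl1 had a log2 fold change (Nfkbiz KO over Ctrl) of 3.67 (SE 0.226). Leaving out each sample in turn gave values between 3.43 and 3.97, the lowest without Ctrl replicate 2 and the highest without Ctrl replicate 1. On the log2(TPM + 1) scale, where the added 1 exceeds the Ctrl level itself, the change was 2.27, and on the log2(TPM + 0.1) scale it was 3.52. Fhl1 lies on the X chromosome (GRCm39, 55777147 to 55838706, plus strand), spans 61.56 kb and has 13 exons after merging of overlapping exons. The only gene annotated within it, a small nuclear RNA gene, had 0 reads in all samples. Of 11 smooth and striated muscle markers, 10 were under 1 TPM in every sample, and Myog, Myod1 and Actc1 had no read at all. The summed level of these markers was 50.2 to 58.5 TPM in Ctrl and 38.7 to 44.1 TPM in Nfkbiz KO, almost entirely from Acta2. The part of these markers in the change of Fhl1 was not tested.

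Fhl2, a coactivator and integrin-binding adaptor that is itself a known SRF target, was present at a far higher level than Fhl1 in both groups. Its levels were 61.9, 54.3 and 56.9 TPM in Ctrl against 56.7, 55.8 and 52.6 TPM in Nfkbiz KO. The groups overlapped on this scale, with means of 57.7 ± 3.87 TPM and 55.0 ± 2.19 TPM. In CPM, normalized by the TMM method, they did not overlap, with 42.0, 38.3 and 39.6 CPM in Ctrl against 35.7, 36.9 and 34.3 CPM in Nfkbiz KO. The log2 fold change from read counts was -0.16 (SE 0.060), which fell just under the threshold at an adjusted p of 0.049 (edgeR quasi-likelihood test, adjusted by the Benjamini-Hochberg method over 14419 genes). This call was lost in 11 of 15 alternatives, across which the adjusted p ranged from 0.034 to 0.51, and without Ctrl replicate 1 the change was -0.13 with an adjusted p of 0.16 (edgeR).

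Fhl2 lies on chromosome 1 (GRCm39, 43162199 to 43236290, minus strand, 74.09 kb). It shares 423 exonic bases with AI597479 on the opposite strand, which had 817, 918 and 981 reads in Ctrl and 771, 919 and 1076 reads in Nfkbiz KO. Since the stated counting does not separate the strands, reads in the shared bases cannot be assigned to either gene with certainty.

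Fhl3, a LIM adaptor that binds actin and is found in skeletal muscle, was the most abundant FHL gene. It had 167, 159 and 156 TPM in Ctrl against 162, 170 and 148 TPM in Nfkbiz KO, so that the groups overlapped completely. The log2 fold change was -0.10 (SE 0.059) with an adjusted p of 0.22 (edgeR), and across the alternatives it stayed between -0.13 and -0.01. Fhl3 is a short gene of 8.248 kb on chromosome 4 (GRCm39, 124594172 to 124602419, plus strand). Of the remaining FHL genes, which are no members here, Fhl4 had between 15 and 28 reads per sample with an estimated log2 change of 0.42 (SE 0.334, adjusted p = 0.36, edgeR), and Fhl5 had no read in any sample.

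As a share of the summed TPM of Fhl1, Fhl2 and Fhl3, Fhl1 made up 0.205% ± 0.078 in Ctrl and 2.71% ± 0.259 in Nfkbiz KO. Fhl3 contributed 73.4% ± 0.903 and 72.4% ± 0.961, and Fhl2 26.4% ± 0.831 and 24.9% ± 0.742. The sum of the 3 genes was 219 ± 9.27 TPM in Ctrl against 221 ± 13.4 TPM in Nfkbiz KO. The increase of Fhl1 thus added little to the total FHL transcript level, which Fhl2 and Fhl3 made up in both groups.

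**Figure D1:**
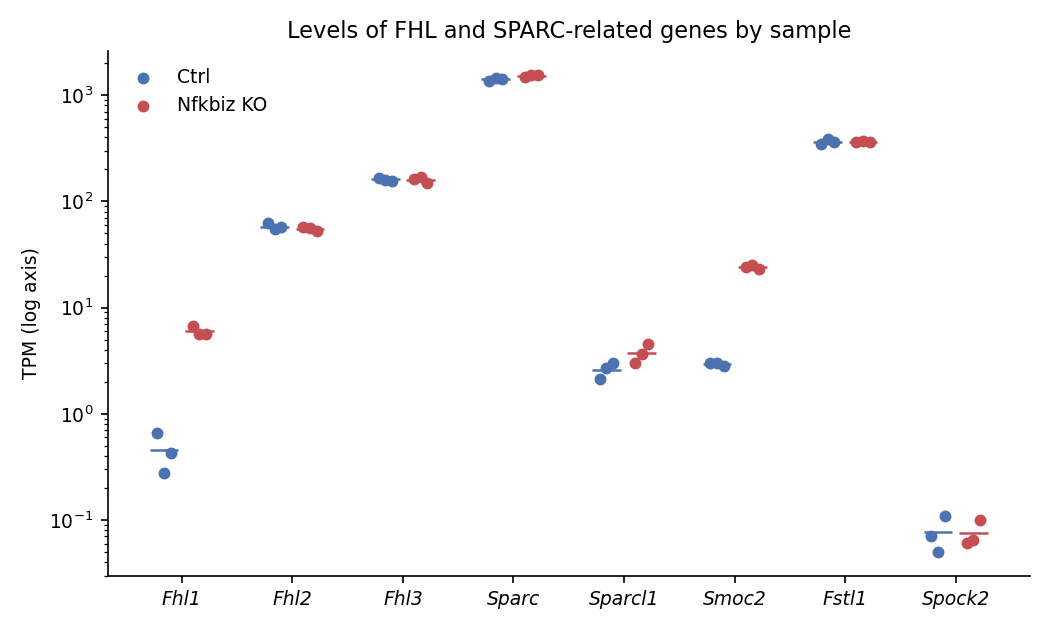
TPM of the members other than Smoc1 and Spock1, which are not drawn, in the 3 Ctrl and 3 Nfkbiz KO samples. Each sample is 1 point, with a line at the group mean. Fhl1 rises from 0.274 to 0.654 TPM to 5.64 to 6.65 TPM and Smoc2 from 2.83 to 3.02 TPM to 23.1 to 25 TPM, while Fhl2, Fhl3 and Fstl1 overlap between the groups.

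Smoc2, a secreted calcium-binding protein of basement membranes and matrix that modulates growth factor and integrin signaling, rose with a narrow spread. It had 3.01, 3.02 and 2.83 TPM in Ctrl against 23.99, 25 and 23.1 TPM in Nfkbiz KO. The groups were clearly apart, the lowest Nfkbiz KO sample being 7.65 times the highest Ctrl sample, and the means were 2.95 ± 0.107 TPM and 24.04 ± 0.938 TPM, a ratio of 8.14. In contrast to Fhl1, the Ctrl level of Smoc2 was well covered, with 229, 246 and 283 reads in Ctrl and 1531, 1971 and 2087 reads in Nfkbiz KO. The log2 fold change from read counts was 2.85 (SE 0.068), between 2.82 and 2.87 when samples were omitted one by one, 2.66 on the log2(TPM + 1) scale and 2.98 on the log2(TPM + 0.1) scale. A log2 fold change of at least this size was seen in 17 of 14419 genes tested (0.118%), Fhl1 and Smoc2 among them. Both were chosen by the size of this change, so the share only describes that choice.

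Smoc2 lies on chromosome 17 (GRCm39, 14499735 to 14625074, plus strand), spans 125.3 kb and has 16 merged exons. Among the genes that overlap it, Gm34567 on the same strand had 2 reads in Nfkbiz KO replicate 1 and none elsewhere, and 4930474M22Rik on the opposite strand, with 246 shared exonic bases, had none. Of its reads, 99.5% mapped uniquely. Exon-based RPKM and gene reads moved together for both genes. The log2 ratio of gene reads to RPKM was taken relative to each sample's median and then centered per gene. That median was over tested genes at 1 TPM or more in every sample, so a shift shared by all genes is removed. For Fhl1 the ratio stayed between -0.06 and 0.06 over the 6 samples. For Smoc2 it was 0.013 to 0.062 in Ctrl and -0.039 to -0.029 in Nfkbiz KO, so the groups differed slightly.

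Smoc1, the closest paralog of Smoc2, which acts as a modulator of bone morphogenetic protein signaling in development, was at the limit of detection. It had 2, 0 and 0 reads in Ctrl and 0, 0 and 3 reads in Nfkbiz KO, too few for a test, and both group totals were at or below the limit of 3 counts. Smoc1 lies on chromosome 12 (GRCm39, 81073554 to 81233188, plus strand). For counting error only, the 95% Poisson intervals of the totals were 0.24 to 7.22 reads in Ctrl and 0.62 to 8.77 in Nfkbiz KO. A change of Smoc1 within these low levels was not detectable at this depth. Smoc2 had 5589 reads in all in Nfkbiz KO, a level that Smoc1 did not come near.

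Sparc, the collagen-binding protein also known as osteonectin, was the most abundant member by far and lay at the 99.4th percentile of the tested genes by TPM. It had 1369, 1452 and 1431 TPM in Ctrl against 1479, 1558 and 1536 TPM in Nfkbiz KO, so that the groups did not overlap on this scale, with means of 1417 ± 43.4 TPM and 1524 ± 40.9 TPM. In CPM they did overlap, with 1559, 1574 and 1707 CPM in Ctrl and 1563, 1661 and 1645 CPM in Nfkbiz KO. The log2 fold change from read counts was 0.01 (SE 0.061, adjusted p = 0.93, edgeR), and the difference of mean log2 TPM was 0.11 (p = 0.1 by an exact, two-sided permutation test, which cannot go lower with 3 samples per group). The median of all genes on the log2(TPM + 1) scale was 0.09 with the filter on low values and 0.03 without it, against -0.02 from read counts. Sparc lies on chromosome 11 (GRCm39, 55285317 to 55314067, minus strand).

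Sparcl1, also called hevin, a matricellular relative of SPARC with a role at synapses and in vessels, was at a low level. It had 2.12, 2.68 and 3.01 TPM in Ctrl against 3.03, 3.64 and 4.58 TPM in Nfkbiz KO, so that the groups lay next to each other without overlapping, and in CPM they overlapped. With 64, 86 and 117 reads in Ctrl and 81, 119 and 172 reads in Nfkbiz KO, the log2 fold change was 0.44 (SE 0.204, unadjusted p = 0.053, adjusted p = 0.12, edgeR). It ranged from 0.25 to 0.60 when 1 sample was omitted at a time, and only without Ctrl replicate 3 did it pass the threshold (adjusted p = 0.048, edgeR). Within each group the sample with the most reads in all also had the highest Sparcl1 level, and the part of depth in this was not tested. Sparcl1 lies on chromosome 5 (GRCm39, 104226288 to 104262065, minus strand) and shares 578 exonic bases with Gm26703 on the opposite strand, which had 1 to 9 reads per sample.

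Fstl1, a secreted glycoprotein of the follistatin-like family that mesenchymal cells release, was the second most abundant member. It had 343, 386 and 361 TPM in Ctrl against 359, 366 and 363 TPM in Nfkbiz KO, all Nfkbiz KO samples lying inside the range of Ctrl. The log2 fold change from read counts was -0.10 (SE 0.056, adjusted p = 0.18, edgeR), whereas on the log2(TPM + 1) scale it was 0.00017. In CPM no Nfkbiz KO sample reached the Ctrl range (exact, two-sided permutation p = 0.1). Fstl1 lies on chromosome 16 (GRCm39, 37597105 to 37656876, plus strand).

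Spock1 and Spock2 encode the testicans, proteoglycans of the extracellular matrix that are best known from brain. Spock1 (chromosome 13 of GRCm39, 57569008 to 58056146, minus strand) had 1 read in Ctrl replicate 2 and none in the other samples. Spock2 (chromosome 10 of GRCm39, 59942041 to 59971357, plus strand) had 5, 4 and 9 reads in Ctrl and 5, 7 and 8 reads in Nfkbiz KO, or 0.050 to 0.109 TPM and 0.060 to 0.10 TPM. Both genes failed the filter on low counts, and the groups overlapped. Spock3, which is no member here, had no read in any sample.

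Of the summed TPM of the 7 SPARC-related genes, Sparc made up 79.4% ± 0.531 in Ctrl and 79.6% ± 0.271 in Nfkbiz KO, and Fstl1 20.3% ± 0.532 and 19.0% ± 0.276. Smoc2 rose from 0.166% ± 0.009 to 1.26% ± 0.048 of this sum. The sum itself was 1786 ± 64.5 TPM in Ctrl against 1915 ± 44.9 TPM in Nfkbiz KO.

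Ordered by TPM in Ctrl, Sparc was followed by Fstl1, Fhl3, Fhl2, Smoc2, Sparcl1, Fhl1 and Spock2, with Smoc1 and Spock1 listed at 0 TPM. The ranges of Smoc2 (2.83 to 3.02 TPM) and Sparcl1 (2.12 to 3.01 TPM) overlapped in this order, and those of the other neighbors above Smoc1 did not. In Nfkbiz KO, Smoc2 stayed below Fhl2, but Fhl1 (5.64 to 6.65 TPM) had moved above Sparcl1 (3.03 to 4.58 TPM), and no ranges of neighbors above Smoc1 overlapped.

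In all, 7 of the 10 members passed the filter on low counts and were tested, and 3 (Smoc1, Spock1 and Spock2) did not. Apart from Fhl1 and Smoc2, 1 of the 5 tested relatives, Fhl2, reached the threshold of 0.05 for the adjusted p (edgeR), where 36.6% of all tested genes did. An unadjusted p under 0.05 was reached by 1 of them, against 44.8% of all genes, and DESeq2 called 0. None of the 5 passed the full thresholds of the study (fold change above 2, difference above 4 TPM and adjusted p of 0.05 or less), which 1.79% of all genes passed. Fhl2 and Fstl1 did not overlap between the groups in CPM, as was the case for 48.4% of all tested genes, and a different pair, Sparc and Sparcl1, did not overlap in TPM and were higher in Nfkbiz KO, where 47.8% of all tested genes did not overlap and 32.9% did not overlap and were higher.

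**Figure D2:**
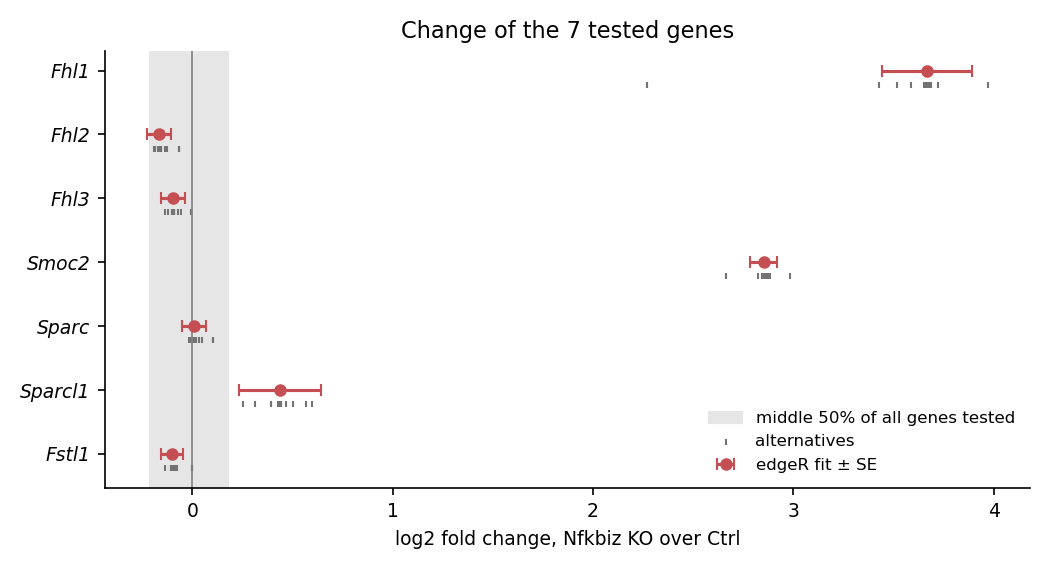
Log2 fold change (Nfkbiz KO over Ctrl) from read counts for the 7 tested members, with bars for 1 standard error. Fhl1 (3.67) and Smoc2 (2.85) lie far to the right, and the other 5 lie between -0.16 and 0.44.

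**Figure D3:**
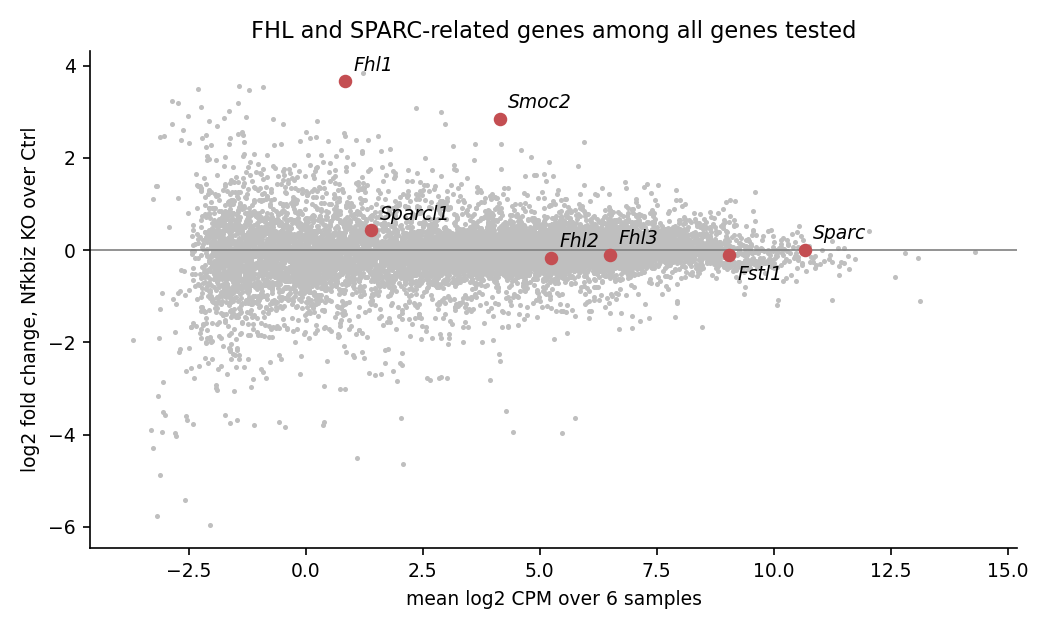
Log2 fold change of all 14419 tested genes against their mean level, with the tested members labelled. The quartiles of all genes were -0.21 and 0.18, and of the members other than Fhl1 and Smoc2 only Sparcl1 (0.44) lies outside them.

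The genes with the pattern most like that of Fhl1 were named by the Euclidean distance between mean-centered log2 CPM over the 6 samples, among all genes tested. They were Naip1 (distance 0.692), Cxcr4 (0.744), the gene ENSMUSG00000120268 (0.950), Nefl (1.02) and Gldn (1.06). Cxcr4, a chemokine receptor, had 1.13 ± 0.236 TPM in Ctrl against 17.2 ± 0.755 TPM in Nfkbiz KO, and Naip1, an inflammasome receptor gene, 0.024 ± 0.028 TPM and 0.735 ± 0.186 TPM. The nearest genes to Smoc2 were Dock10 (0.410), Frmpd3 (0.514), Kcnb2 (0.517), Nefl (0.521) and Nptx1 (0.638). Nptx1, a neuronal pentraxin, had 17.4 ± 2.20 TPM in Ctrl against 94.98 ± 2.98 TPM in Nfkbiz KO, and Dock10, a guanine nucleotide exchange factor, 0.474 ± 0.092 TPM and 3.58 ± 0.288 TPM. Kcnb2 had 0.005 ± 0.009 TPM in Ctrl against 0.002 ± 0.004 TPM in Nfkbiz KO despite its log2 fold change of 2.48 from gene reads, which include reads outside exons. Fhl1 and Smoc2 were 1.34 apart. These likenesses come from the comparison that chose Fhl1 and Smoc2 and carry no test.

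Other LIM-domain adaptor genes moved in both directions. Of 42 genes listed, 32 were tested, and 7 were higher and 5 lower in Nfkbiz KO at an adjusted p of 0.05 or less (edgeR). This was 37.5% called, close to the 36.6% of all genes (18.2% higher and 18.4% lower). The median log2 fold change was 0.01, against -0.02 for all genes. On the log2(TPM + 1) scale the split was 8 higher and 2 lower, where 3326 of all genes were higher and 1343 lower. None passed the full thresholds of the study. Crip1, a small LIM protein of gut and immune cells, rose from 1.36 ± 0.095 to 4.18 ± 0.563 TPM, and its log2 fold change was 1.44 (SE 0.209, adjusted p = 0.00018, edgeR). Csrp2, an actin-bundling LIM protein, rose from 38.5 ± 0.569 to 68.9 ± 3.19 TPM (log2 fold change 0.74), and Lpp, a focal adhesion protein, from 16.6 ± 3.004 to 24.9 ± 0.593 TPM (0.38). Ajuba, a scaffold of the Hippo pathway, fell from 95.4 ± 7.88 to 67.2 ± 3.84 TPM (log2 fold change -0.59, adjusted p = 1.6e-05, edgeR). Smaller decreases were measured for Trip6, a relative of zyxin, and Limk2, a kinase of cofilin, both with a log2 fold change of -0.29.

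Genes of the list named matricellular and SPARC-related were more often lower than higher. This list also holds crosslinking enzymes (Lox, Loxl1 and Loxl2) and small proteoglycans such as Bgn and Dcn. Its counts are therefore not those of matricellular genes alone. Of 38 genes listed, 30 were tested, and 16 were lower and 5 higher at an adjusted p of 0.05 or less (edgeR), or 70.0% called where 36.6% of all genes were. The median log2 fold change was -0.39, and the split was 12 lower and 7 higher on the log2(TPM + 1) scale. The 3 genes that passed the full thresholds were all lower. Lox, which crosslinks collagen and elastin, fell from 28.4 ± 2.94 to 5.70 ± 0.123 TPM (log2 fold change -2.40, SE 0.072, adjusted p = 3.2e-10, edgeR). Fbln2, a fibulin of basement membranes, fell from 137 ± 10.8 to 53.0 ± 3.92 TPM (log2 fold change -1.47). Loxl2, a relative of Lox, fell from 36.1 ± 2.46 to 16.3 ± 0.506 TPM (-1.18), with 79.4% of its reads mapping uniquely. Among the 5 that rose, Tgfbi, a matrix protein induced by TGF-β, went from 88.3 ± 5.93 to 161 ± 3.20 TPM (log2 fold change 0.76, adjusted p = 3.1e-06, edgeR). Fbln5, a fibulin needed for elastic fibers, rose by a log2 fold change of 0.54, and Ccn3, a CCN family protein, by 0.42. Smoc2 moved in the direction that was the less frequent one in this list. It was chosen by its change in this same comparison, so this is only a description. Fibroblast markers, of which Dcn and Lum are also in the list, were lower in Nfkbiz KO by their summed level given above, which 3 collagen genes dominate. Of the 6 at 1 TPM or more in every sample, Pdgfra alone was not lower (log2 fold change 0.002, adjusted p = 0.98, edgeR). The part of these markers in this count was not tested.

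SRF target genes, listed because Fhl2 is one, showed no common direction. Of 31 genes, 28 were tested, and 5 were higher and 7 lower (42.9% called, against 36.6% of all genes) at an adjusted p of 0.05 or less (edgeR), with a median log2 fold change of -0.04. The count of 12 fell to 7 on the log2(TPM + 1) scale, with 5 higher and 2 lower, and to 7 without Nfkbiz KO replicate 3. Egr1, an immediate early transcription factor, rose from 73.3 ± 4.62 to 103 ± 1.76 TPM (log2 fold change 0.40, SE 0.051, adjusted p = 5.9e-05, edgeR). Fosb, an AP-1 subunit (log2 fold change 0.47), and Zfp36, which promotes the decay of mRNAs (0.41), rose as well. Acta2, smooth muscle actin and also one of the muscle markers above, fell from 52.5 ± 4.79 to 41.7 ± 3.01 TPM (log2 fold change -0.43, adjusted p = 0.0013, edgeR), and Tagln2, an actin-binding protein, had a log2 fold change of -0.31. By read counts, the log2 fold change of Filip1l was -1.08 (adjusted p = 0.023, edgeR), whereas the TPM of the gene moved the other way, from 70.2 ± 8.08 in Ctrl to 78.5 ± 1.85 in Nfkbiz KO. Only 9.26% of its reads mapped uniquely, and without Ctrl replicate 1 its change was -0.33. Srf itself had a log2 fold change of -0.13 (SE 0.087, adjusted p = 0.26, edgeR).

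**Figure D4:**
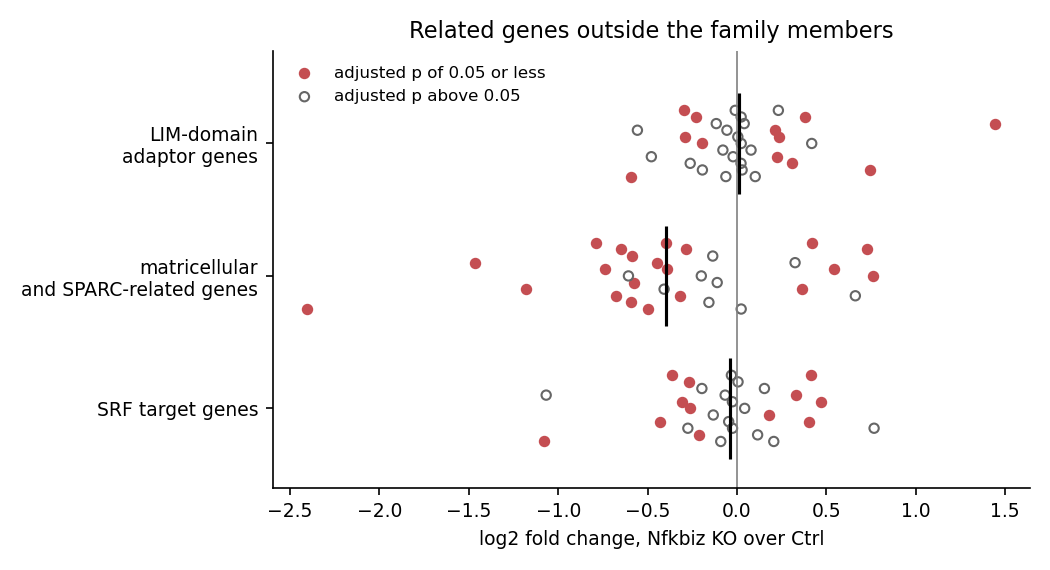
Log2 fold change (Nfkbiz KO over Ctrl) of every tested gene in the 3 lists, with filled points for an adjusted p of 0.05 or less. The median is 0.01 for LIM-domain adaptor genes, -0.39 for matricellular and SPARC-related genes and -0.04 for SRF target genes.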

How the data were processed

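RNA of D4M-3A cells was sequenced in 3 Ctrl and 3 Nfkbiz KO samples, grouped by their labels. Mapping was done by the authors in CLC Genomics Workbench, and they deposited 1 gene table per sample, with raw counts of reads per gene, both total and uniquely mapped. The deposited TPM values are normalized for length and depth from exon reads, and the deposited RPKM values for exon length and mapped reads. Their decimal commas were converted. Reads mapping to several places are included in the total counts, and reads were not stated to be separated by strand. The methods name GRCm39 and the submitters' processing notes GRCm38, and the annotation version is not given in the sources used here. Coordinates are those of GENCODE vM39 (GRCm39), matched by symbol (86.2% of listed names).

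Total reads were tested with the quasi-likelihood test of edgeR 4.0.16 in R 4.3.3, after TMM normalization (factors 0.978 to 1.011) and filterByExpr (minimum count 10, minimum total 15), p-values being adjusted by the Benjamini-Hochberg method over 14419 remaining genes. The SE is the size of the log2 fold change divided by the square root of F. The study's thresholds were an adjusted p of at most 0.05, a more than 2-fold change and a difference over 4, whose unit is not stated and was taken as TPM. Alternatives were DESeq2 1.42.0, limma 3.58.1 on log2(TPM + 1) and log2(TPM + 0.1), RLE factors, other filters, uniquely mapped reads, a replicate block and leaving out each sample. The scripts were tested on simulated data. Samples of a group were no duplicates, since the chi-square per degree of freedom between their counts was 27.85 to 71.36 in Ctrl and 3.53 to 6.24 in Nfkbiz KO.

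The members, gene lists and tests were chosen with earlier results of these data known. Named genes are the members, Nfkbiz, up to 3 genes per direction and list with the largest log2 fold change among those with an adjusted p of 0.05 or less and at least 4 TPM in the higher group, and the 5 genes nearest in pattern to Fhl1 and to Smoc2. Others (the overlapping genes, Fhl4, Fhl5, Spock3, Srf, Spp1, Tnc, the CCN genes other than Ccn3, and markers) were named after their values were seen. Start regions came from RefSeq (GRCm38.p6), and no coordinates were converted between builds. Python 3.11.15 with pandas 2.3.3 and matplotlib 3.10.9 was used for summaries and plots.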

Additional observations from a re-analysis of the deposited data

How the results depend on the processing

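Across the 15 alternatives the log2 fold changes of Fhl1 and Smoc2 were 2.27 to 3.97 and 2.66 to 2.98. Both genes were chosen by this change in the same samples, so their kept direction is a description and not a check. The single call among the other members, Fhl2, was lost (0 called) with DESeq2, with RLE factors, with no filter on low counts and with limma on log2(TPM + 1), with or without a filter, and on log2(TPM + 0.1). Leaving out 1 sample at a time gave 0 to 2 called, the 2 being Fhl2 and Sparcl1 without Ctrl replicate 3. The replicate numbers could not be taken as pairs: deviations from the group means correlated between same-numbered samples with r of 0.051, -0.014 and 0.031 across genes, and with the replicate number as a block 0 were called. Of the lists, the SRF target genes went from 12 called to 7 with limma on log2(TPM + 1) or log2(TPM + 0.1) and to 5 with log2(TPM + 1) and no filter, and to between 7 and 13 with 1 sample left out (7 without Nfkbiz KO replicate 3). The cause was not tested. LIM-domain adaptor genes stayed at 10 to 13 called and the list named matricellular and SPARC-related at 17 to 22.

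Near 0, the sign of a change depended on the setting. The log2 fold change of Fstl1 turned from -0.10 to 0.00017 with limma on log2(TPM + 1), with or without a filter, and on log2(TPM + 0.1), and that of Sparc ranged from -0.016 to 0.051 with 1 sample left out, turning negative without Ctrl replicate 1 or 2 or Nfkbiz KO replicate 2 or 3. With the filter on low values, the median of all genes was 0.09 on both TPM scales, and it was 0.03 on log2(TPM + 1) without the filter, against -0.02 from read counts. Of the genes called on the filtered log2(TPM + 1) scale, 3326 were higher and 1343 lower, against 2627 and 2647 from read counts. The depth limits Smoc1 and Spock1, whose group totals were at or under the limit of 3 counts, Spock2, which had 4 to 9 reads per sample, and the Ctrl level of Fhl1, which rests on 58 reads.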

Other observations

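The most abundant gene of the matricellular list, Spp1, which encodes osteopontin and was singled out after its values were seen, exceeded even Sparc. It ranged from 14292 to 15859 TPM in Ctrl and from 10883 to 11127 TPM in Nfkbiz KO, with a log2 fold change of -0.57 (SE 0.068, adjusted p = 3.2e-05, edgeR). Tnc, which encodes tenascin C and was likewise singled out after its values were seen, had 498 ± 84.2 TPM in Ctrl against 681 ± 18.0 TPM in Nfkbiz KO, with a log2 fold change of 0.36 (adjusted p = 0.004, edgeR). The CCN genes, also looked up after the values were seen, differed in direction, since Ccn1, Ccn2 and Ccn4 were lower with log2 fold changes of -0.59, -0.50 and -0.45 and Ccn3 was higher with 0.42, all at an adjusted p of 0.05 or less (edgeR), which 36.6% of all genes had. Ccn5 and Ccn6 did not pass, with log2 fold changes of -0.41 (adjusted p = 0.24, edgeR) and -0.16 (adjusted p = 0.72, edgeR).

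Among the markers of other cell types, Cdh5, an endothelial cadherin, had 0.548 ± 0.139 TPM in Ctrl against 1.54 ± 0.313 TPM in Nfkbiz KO (log2 fold change 1.34, adjusted p = 0.0023, edgeR). Pecam1, the only other endothelial marker tested, had 0.098 ± 0.054 TPM and 0.072 ± 0.063 TPM (log2 fold change -0.16, adjusted p = 0.88, edgeR). Of those not tested, Tek was lower and Kdr and Vwf were higher by mean TPM, while Tie1 and Emcn were listed at 0 TPM in all samples. S100a8, a calprotectin subunit of myeloid cells, had 13.4 ± 2.19 TPM and 5.86 ± 1.24 TPM (log2 fold change -1.32, adjusted p = 0.00055, edgeR), whereas the other immune markers that were at 1 TPM or more in every sample, Cd14 and Cd68, had log2 fold changes of -0.03 (adjusted p = 0.83, edgeR) and 0.34 (adjusted p = 0.37, edgeR). Cd14 had 14.6 ± 0.947 and 15.4 ± 0.792 TPM and Cd68 2.19 ± 0.355 and 3.16 ± 1.22 TPM. Ptprc, the pan-leukocyte marker, was at 0.010 ± 0.018 TPM and 0.013 ± 0.015 TPM.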
